A study of Mus musculus with 21 samples.

Results

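The genes described are 10 markers of pericytes and vascular smooth muscle cells, together called mural cells: Pdgfrb, Notch3, Rgs5, Kcnj8, Abcc9, Cspg4, Anpep, Des, Acta2 and Tagln. They were chosen by symbol from the 23827 gene rows of each expression table, and each of the 10 had 1 row. The question was how far mRNAs of the cells that wrap blood vessels were depleted from, or carried into, mRNA captured from endothelial ribosomes. All 21 samples came from mouse embryos at embryonic day 14.5 with 1 copy of Gt(ROSA)26Sor-mCherry-Rpl10a, in which Cre switches on a ribosomal protein tagged with mCherry from the broadly active CAGGS promoter. In translating ribosome affinity purification, tagged ribosomes are captured with an antibody and their mRNA is sequenced, which gives the translatome of the cells that carried Cre. Total RNA of the same lysates gives the transcriptome. Each of 7 groups had 3 samples. Sox2Cre+/- embryos, with the tag in all cells of the epiblast lineage, gave the brain transcriptome, brain translatome, kidney transcriptome and kidney translatome. Cdh5CreERT2+/- embryos, exposed to tamoxifen given to the dam and with the tag in endothelial cells (EC), gave the brain EC and kidney EC translatomes. Emx1Cre+/- embryos, with the tag in the lineage of the dorsal telencephalon, gave the Emx1 translatome. The brain tissue was forebrain with part of the diencephalon, each sample held tissue of at most a pair of embryos, and the tagged allele came from 1 embryonic stem cell clone.

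Mural cells sit against the outer face of capillaries and larger vessels and are recruited by PDGF-B, which endothelial cells secrete and which binds PDGFRB on the mural cell. In the forebrain much of this population comes from neural crest and mesoderm, outside the Emx1 lineage, while in the embryonic kidney it arises with other cells from stromal progenitors. None of the 10 genes is restricted to mural cells in every tissue: Cspg4 is also made by oligodendrocyte progenitors, Anpep by fibroblasts and kidney tubules, and Des and Acta2 by muscle.

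Sample depth ran from 21760652 to 79231692 reads in genes. The 10 genes had between 2 reads, for Des in 1 Emx1 sample, and 27403 reads, for Cspg4 in 1 kidney EC sample. All 12 endothelial markers tested (Cdh5, Pecam1, Kdr, Cldn5 and others) rose in both EC translatomes against the organ translatome, with medians of 4.53 in brain and 2.98 in kidney on the log2 scale. In the brain EC translatome 11 of 12 neural markers fell, and in the kidney EC translatome 11 of 12 kidney epithelial markers fell. The exception in kidney was Nphs1, a podocyte gene, at 7.97 RPKM against 3.31. The brain EC, kidney EC and Emx1 groups were each sequenced on a lane of their own, so that lane and group cannot be told apart. Levels are given in RPKM, in which reads are scaled by transcript length and by the total reads of the sample, and tests used edgeR on read counts with an adjusted p under 0.001 as the threshold for a call. P-values weigh the difference between groups against the spread between the 3 samples of a group, which edgeR estimates with help from all rows.

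Kcnj8 and Abcc9 encode the pore (Kir6.1) and the sulphonylurea receptor (SUR2) of the vascular ATP-sensitive potassium channel, and in GRCm38 they lie side by side on the minus strand of chromosome 6, Kcnj8 at chr6:142564837-142571614 and Abcc9 at chr6:142587862-142702315, with 16247 bases and 0 annotated genes between them. Acta2, smooth muscle actin, lies at chr19:34241090-34255590 on the minus strand, and Cspg4, the proteoglycan NG2, at chr9:56865033-56899870 on the plus strand. The 250 bases before the RefSeq start of these genes (GRCm38.p6) are shown because Kcnj8 and Abcc9 moved apart in the kidney, Cspg4 was the member that rose in both EC translatomes, and Acta2 was the member with a near match to the CArG box (CC, 6 A or T bases, GG), the site of serum response factor, when CC and GG were kept and at most 1 of the 6 inner bases was a C or G. Capitals mark matches of that kind, found on either strand. Stretches with a mismatch in the outer CC or GG were not searched for and are not marked. Each sequence is 5′ to 3′ on the strand of its gene.
Kcnj8, chr6:142571615-142571864, minus strand: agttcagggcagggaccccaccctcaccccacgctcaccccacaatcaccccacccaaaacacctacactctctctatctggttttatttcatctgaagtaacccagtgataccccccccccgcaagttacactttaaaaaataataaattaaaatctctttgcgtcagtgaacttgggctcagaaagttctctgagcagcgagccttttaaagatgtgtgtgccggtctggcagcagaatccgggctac
Abcc9, chr6:142702275-142702524, minus strand: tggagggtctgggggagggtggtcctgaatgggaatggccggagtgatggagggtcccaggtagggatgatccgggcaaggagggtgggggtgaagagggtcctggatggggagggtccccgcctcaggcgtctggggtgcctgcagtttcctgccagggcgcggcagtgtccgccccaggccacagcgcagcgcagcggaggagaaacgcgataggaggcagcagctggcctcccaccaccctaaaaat
Cspg4, chr9:56864854-56865103, plus strand: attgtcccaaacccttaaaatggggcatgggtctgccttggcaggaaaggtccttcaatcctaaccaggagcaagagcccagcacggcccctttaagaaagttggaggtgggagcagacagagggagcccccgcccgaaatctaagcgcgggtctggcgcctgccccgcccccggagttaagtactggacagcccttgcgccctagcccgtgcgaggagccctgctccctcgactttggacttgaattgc
Acta2, chr19:34255374-34255623, minus strand: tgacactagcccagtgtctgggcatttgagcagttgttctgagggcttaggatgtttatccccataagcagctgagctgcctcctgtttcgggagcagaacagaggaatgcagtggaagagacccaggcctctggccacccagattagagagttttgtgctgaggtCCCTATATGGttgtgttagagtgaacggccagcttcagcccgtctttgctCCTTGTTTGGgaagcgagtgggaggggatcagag

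The Acta2 window held CCCTATATGG 84 bases and CCTTGTTTGG 34 bases before the start, both within this rule. A match by this rule, with CC and GG intact and at most 1 inner C or G, was in 8.59% of 32536 RefSeq promoter windows of the same length, and an exact CArG box was in 1.48% of them and in none of the 8 members with an entry (Des, Rgs5, Kcnj8, Abcc9, Anpep, Cspg4, Notch3 and Acta2). GTGGGAA, the core of sites bound by the Notch effector RBPJ, was searched on both strands and was in 5.43% of windows and in none of the 8. The windows of Kcnj8 and Abcc9 differed in base composition, with 49.2% and 66.8% G or C.

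In the whole organs the 10 genes were mostly kidney genes. Against the brain translatome, the kidney translatome was higher for 9 of the 10, where 26.2% of all 19241 rows tested were higher and 27.2% lower, and the median over the 10 was 1.74 on the log2 scale against 0.01 for all rows. Des, the intermediate filament of muscle and pericytes, differed most, with 25.9, 44.3 and 28.0 RPKM in the kidney translatome and 0.89, 1.13 and 0.72 RPKM in the brain translatome, a log2 fold change of 4.96 (SE 0.22, adjusted p = 9.93e-11, edgeR). Rgs5, a regulator of G-protein signalling that marks pericytes, was the exception, with 26.8, 42.1 and 46.8 RPKM in kidney and 21.5, 31.6 and 25.9 RPKM in brain. Its ranges overlapped and the log2 fold change of 0.35 (SE 0.17) did not pass (adjusted p = 0.0806, edgeR). Scaling by total counts alone moved the median of all rows by 0.193 toward kidney and changed none of these calls. Of the 9, Kcnj8 (0.61) was lost without brain translatome replicate 1 (0.52, adjusted p = 2.04e-03). In bulk samples, fewer cells of a type and less RNA per cell cannot be told apart.

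**Figure D1:**
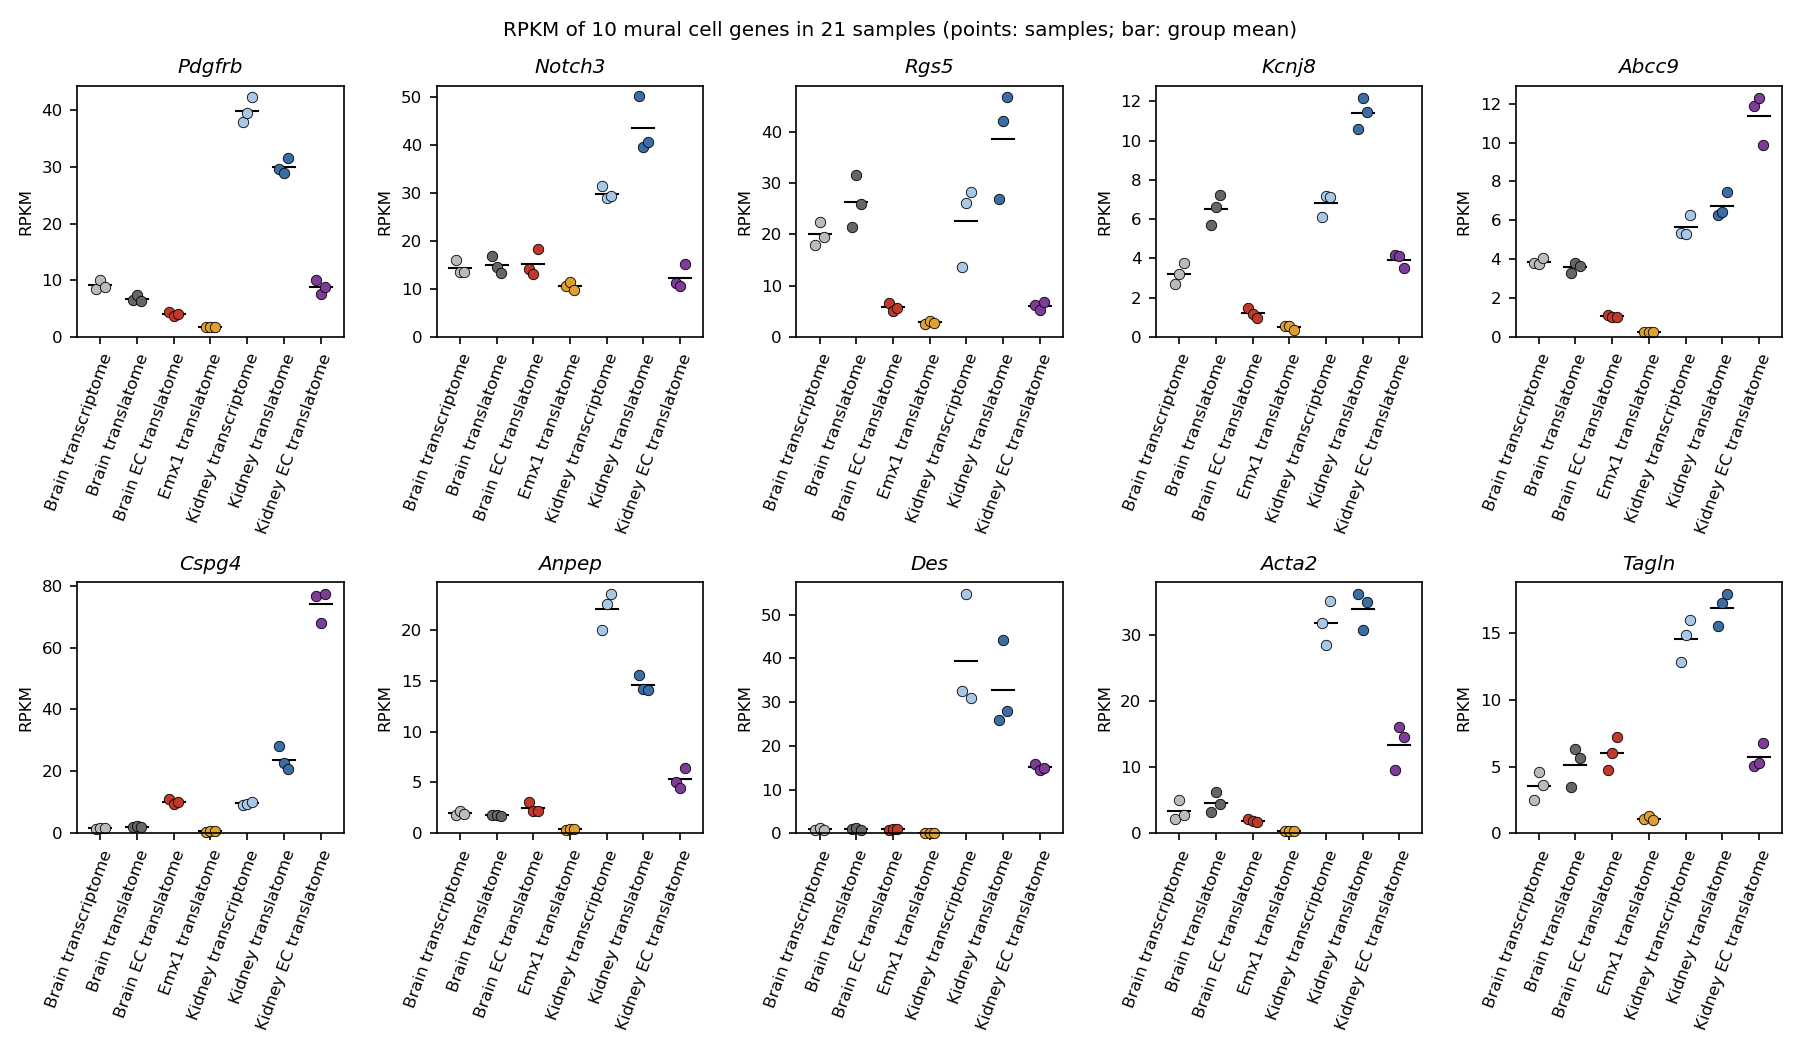
RPKM (vertical axes, linear, from 0) of the 10 genes in each of 21 samples, with a bar at the mean of each group of 3. Cspg4 reached 67.9 to 77.2 RPKM in the kidney EC translatome and Abcc9 9.86 to 12.3 RPKM, above every other group, while the Emx1 translatome was lowest for all 10 genes.

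Ribosome-bound mRNA of whole organs was compared with total RNA of the same samples. In brain, Kcnj8 was higher in the translatome and Pdgfrb lower, so that 1 of 10 rose and 1 fell, where 18.6% of all 19446 rows were higher and 18.5% lower. Both shares were below those of all rows. Kcnj8 had 5.69, 6.60 and 7.25 RPKM in the brain translatome and 2.71, 3.19 and 3.78 RPKM in the brain transcriptome, a log2 fold change of 1.04 (SE 0.13, adjusted p = 8.08e-06). Pdgfrb fell by 0.41 (SE 0.08, adjusted p = 5.09e-04). Without brain transcriptome replicate 2, brain translatome replicate 1 or brain translatome replicate 3 the call for Pdgfrb was lost, with log2 fold changes of -0.35, -0.43 and -0.37. In kidney, Cspg4 (1.31), Kcnj8 (0.75) and Notch3 (0.54) were higher in the translatome and Pdgfrb (-0.41) and Anpep (-0.59) lower. These are 3 and 2 of 10, where 14.9% and 15.8% of 19336 rows were called. The share called lower was near that of all rows. Pdgfrb, the receptor for PDGF-B, and Kcnj8 thus moved in opposite directions in both organs. Translatome and transcriptome libraries with the same number came from the same tissue, and a fit with the pair as a block called 5 higher and 1 lower in brain, where 23.1% and 22.8% of rows were called, and 6 higher and 3 lower in kidney, where 24.0% and 25.1% were called. The genes added by the block were Rgs5 (0.41), Cspg4 (0.36), Acta2 (0.54) and Tagln (0.56) in brain, and Rgs5 (0.79), Abcc9 (0.25), Tagln (0.22) and Des (-0.27) in kidney. The kidney fit with the block took each row's spread from the trend over all rows, since the estimated prior degrees of freedom were infinite.

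In the brain EC translatome the 10 genes did not move together. Against the brain translatome 5 fell (Kcnj8, Rgs5, Abcc9, Acta2 and Pdgfrb) and 2 rose (Cspg4 and Anpep), where 21.4% of all 19103 rows fell and 24.8% rose. The 2 that rose are a share near that of all rows. The median over the 10 was -0.09 on the log2 scale, against -0.01 for all rows. Scaling by total counts alone moved the median of all rows by -0.297 and the share of calls that were higher from 53.7% to 36.1%, and it left 5 of the 10 lower and 1 higher.

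Kcnj8 was reduced most, with 1.47, 1.15 and 0.95 RPKM in the brain EC translatome against 5.69, 6.60 and 7.25 RPKM in the brain translatome. Its log2 fold change was -2.16 (SE 0.16, adjusted p = 5.33e-08, edgeR). Abcc9, the other channel subunit, had 1.11, 1.00 and 1.03 RPKM against 3.30, 3.79 and 3.65 RPKM and a log2 fold change of -1.48 (SE 0.09, adjusted p = 1.01e-08). All 3 EC samples lay below all 3 brain translatome samples for both channel genes. Rgs5 had 6.59, 5.13 and 5.65 RPKM against 21.5, 31.6 and 25.9 RPKM and a log2 fold change of -1.89 (SE 0.13, adjusted p = 3.85e-08). No alternative normalization, filter, tool or left-out sample changed the calls of Kcnj8, Abcc9 and Rgs5 here.

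Pdgfrb fell less, from 6.54, 7.35 and 6.24 RPKM in the brain translatome to 4.33, 3.73 and 4.07 RPKM in the brain EC translatome, with a log2 fold change of -0.44 (SE 0.09, adjusted p = 5.85e-04). Acta2 had 2.19, 1.85 and 1.65 RPKM against 3.24, 6.16 and 4.47 RPKM and a log2 fold change of -0.99 (SE 0.20, adjusted p = 8.27e-04). The groups did not overlap for either gene, but both calls were close to the threshold. Without brain translatome replicate 2, brain EC replicate 2 or brain EC replicate 3 both calls were lost, Pdgfrb at -0.38, -0.38 and -0.45 and Acta2 at -0.73, -0.96 and -0.90. Pdgfrb (-0.46) was also lost without brain translatome replicate 1 and Acta2 (-1.002) without brain translatome replicate 3. The call for Acta2 was also lost with a filter of 10 counts in 3 samples (adjusted p = 1.91e-03) and in a single fit of all 21 samples (adjusted p = 1.49e-03), and with the replicate block both Pdgfrb (adjusted p = 1.54e-03) and Acta2 (adjusted p = 1.09e-03) were lost.

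Cspg4 ran the other way, with 11.2, 9.35 and 10.2 RPKM in the brain EC translatome against 2.05, 2.37 and 1.88 RPKM in the brain translatome. The log2 fold change was 2.58 (SE 0.10, adjusted p = 7.47e-11), and every alternative gave a call in the same direction. Of the oligodendrocyte progenitor markers Olig1, Olig2, Sox10 and Pdgfra, 2 fell and 1 rose, where 21.4% of all rows fell and 24.8% rose. The 1 that rose, a share near that of all rows, was Pdgfra, which is also in the stromal list. Their summed level was 7.81 to 9.81 RPKM in the brain EC translatome against 18.9 to 23.4 RPKM in the brain translatome. The part of oligodendrocyte progenitor mRNA in the Cspg4 value was not tested. Anpep, a membrane aminopeptidase also known as CD13, had 3.03, 2.17 and 2.23 RPKM against 1.78, 1.81 and 1.69 RPKM and a log2 fold change of 0.78 (SE 0.14, adjusted p = 2.31e-04). The call for Anpep was lost with total counts alone (0.49, adjusted p = 7.52e-03) and without brain translatome replicate 1 (0.80) or 3 (0.76). In the same samples 7 of 10 stromal markers rose, among them Col1a1 (0.80), Col1a2 (0.88) and Dcn (0.89), and the summed stromal level was 171 to 269 RPKM against 126 to 142 RPKM. The part of stromal mRNA in the result for Anpep was not tested.

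The remaining 3 genes did not pass in either direction. Notch3, a Notch receptor of mural cells, had 14.2, 13.0 and 18.4 RPKM in the brain EC translatome and 16.8, 14.6 and 13.3 RPKM in the brain translatome, with a log2 fold change of 0.32 (SE 0.12, adjusted p = 0.0294). In the Emx1 translatome, Notch3 was left at 71.3% of its brain translatome level. The part of neural mRNA in the brain values of Notch3 was not tested. Tagln, the actin-binding protein SM22, had 4.77, 6.00 and 7.22 RPKM against 3.48, 6.30 and 5.66 RPKM and a log2 fold change of 0.52 (SE 0.20, adjusted p = 0.0387). Des had 0.71, 0.95 and 1.00 RPKM against 0.89, 1.13 and 0.72 RPKM, a log2 fold change of 0.25 (SE 0.21, adjusted p = 0.316) that turned to -0.048 with total counts alone. The 2 groups overlapped for all 3 genes. Antisense genes overlap Notch3, Des and Tagln, and Pcsk7 overlaps Tagln from the other strand. The libraries did not keep strand, so reads of overlapping genes cannot be told apart.

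Against the brain transcriptome in place of the translatome, 4 of 10 fell and 3 rose in the brain EC translatome, where 24.3% and 26.8% of 19522 rows did. The share that rose was near that of all rows. The 4 that fell were Abcc9 (-1.55), Rgs5 (-1.45), Kcnj8 (-1.10) and Pdgfrb (-0.83), and the 3 that rose were Cspg4 (2.95), Tagln (1.08) and Anpep (0.68). Acta2, at -0.47 (SE 0.25, adjusted p = 0.113), did not pass in this comparison. The calls for Tagln (0.74) and Anpep (0.34) were lost with total counts alone. Leaving out brain EC replicate 3 ended the call for Tagln (0.92), leaving out brain transcriptome replicate 1 (0.62) or 3 (0.65) or brain EC replicate 1 (0.51) ended that for Anpep, and leaving out brain EC replicate 2 brought Notch3 past the threshold (0.51).

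**Figure D2:**
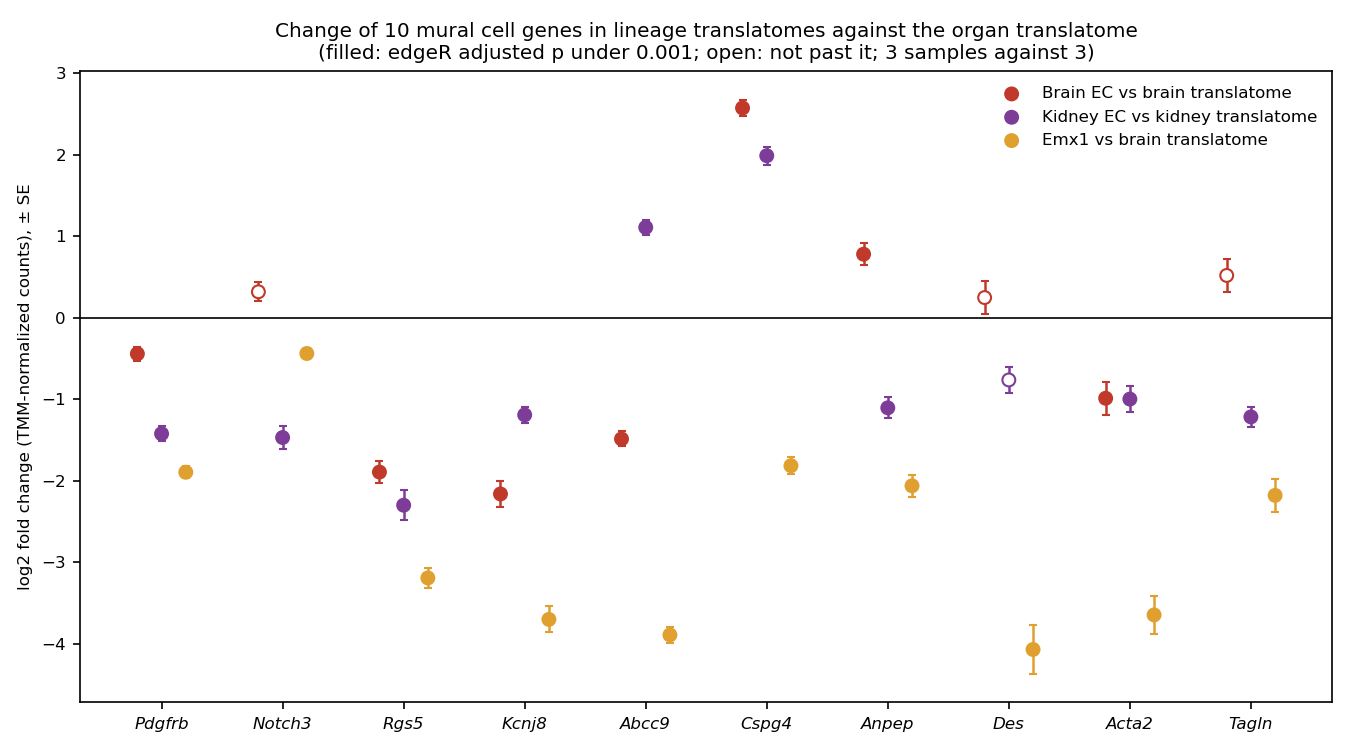
Log2 fold change (vertical axis, TMM-normalized counts, bars ± SE) of the 10 genes in the brain EC, kidney EC and Emx1 translatomes against the translatome of the organ, 3 samples against 3. Filled points passed the test and open points did not: Cspg4 lies above 0 in both EC translatomes (2.58 and 1.99), Abcc9 lies below 0 in brain (-1.48) and above 0 in kidney (1.11), and all Emx1 points lie below 0.

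In the kidney EC translatome 7 of the 10 genes fell against the kidney translatome and 2 rose, where 15.0% of all 18940 rows fell and 16.7% rose. The share that rose was near that of all rows. The genes that fell were Rgs5, Notch3, Pdgfrb, Tagln, Kcnj8, Anpep and Acta2, and those that rose were Cspg4 and Abcc9. The median over the 10 was -1.15 on the log2 scale, against -0.04 for all rows. Scaling by total counts alone moved the median of all rows by -0.368 and the share of calls that were higher from 52.7% to 21.7%, and gave 8 lower and 2 higher.

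Rgs5 fell most, from 26.8, 42.1 and 46.8 RPKM in the kidney translatome to 6.30, 5.27 and 6.75 RPKM in the kidney EC translatome, a log2 fold change of -2.30 (SE 0.18, adjusted p = 1.31e-06). Notch3 fell from 50.3, 39.5 and 40.7 RPKM to 11.1, 10.6 and 15.1 RPKM, a log2 fold change of -1.47 (SE 0.14, adjusted p = 4.93e-06). Pdgfrb fell from 29.6, 29.0 and 31.5 RPKM to 9.99, 7.56 and 8.72 RPKM, a log2 fold change of -1.42 (SE 0.09, adjusted p = 2.74e-07). For each of these genes the 3 EC samples lay below the 3 organ samples by more than the spread within either group. The contractile gene Tagln fell from 15.5, 17.2 and 17.9 RPKM to 5.03, 5.26 and 6.75 RPKM (-1.21, SE 0.13, adjusted p = 1.04e-05). Anpep fell from 15.5, 14.2 and 14.1 RPKM to 5.05, 4.41 and 6.45 RPKM (-1.10, SE 0.13, adjusted p = 2.55e-05).

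The channel genes separated in kidney. Kcnj8 fell from 10.6, 12.2 and 11.5 RPKM to 4.16, 4.10 and 3.49 RPKM, a log2 fold change of -1.19 (SE 0.10, adjusted p = 2.03e-06). Abcc9 rose from 6.25, 6.44 and 7.46 RPKM to 11.9, 12.3 and 9.86 RPKM, a log2 fold change of 1.11 (SE 0.09, adjusted p = 2.01e-06). Neither pair of groups overlapped, and both calls held under every alternative. An antisense gene, 5330439B14Rik, overlaps Abcc9.

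Cspg4 rose from 28.1, 22.6 and 20.6 RPKM to 76.7, 67.9 and 77.2 RPKM, a log2 fold change of 1.99 (SE 0.11, adjusted p = 8.62e-08). The kidney EC translatome was therefore the highest of the 7 groups for Cspg4, and the kidney transcriptome had only 9.23, 9.48 and 10.2 RPKM. Against that transcriptome Cspg4 was 3.37 higher on the log2 scale (SE 0.08, adjusted p = 6.42e-10).

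Acta2 fell from 36.1, 30.7 and 34.98 RPKM to 9.53, 16.0 and 14.5 RPKM, a log2 fold change of -0.995 (SE 0.16, adjusted p = 2.63e-04). Its call was lost without kidney translatome replicate 1 (-0.94) or 3 (-0.97). Actins are close in sequence and can share reads. Actc1, cardiac actin, had a mean of 17.6 RPKM in the kidney EC translatome against 4.62 RPKM in the kidney translatome, and 6 skeletal and cardiac muscle genes summed to 15.1 to 55.6 RPKM against 4.04 to 9.59 RPKM. The part of muscle mRNA in the values of Acta2 and Des, both also made by muscle, was not tested. Des had 15.9, 14.4 and 14.9 RPKM in the EC samples and 25.9, 44.3 and 28.0 RPKM in the organ samples. Its groups did not overlap, but the log2 fold change of -0.76 (SE 0.16) did not pass (adjusted p = 2.18e-03). Des passed with DESeq2 (adjusted p = 2.12e-05), with total counts alone (-1.13), and without kidney translatome replicate 1 (-0.90) or 2 (-0.49).

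Against the kidney transcriptome 5 of 10 fell in the kidney EC translatome (Pdgfrb -1.76, Anpep -1.62, Rgs5 -1.46, Tagln -0.92 and Notch3 -0.85) and 2 rose (Cspg4 and Abcc9, the latter by 1.44), where 18.4% and 22.7% of 19335 rows did. The share that rose was near that of all rows. Kcnj8 (-0.37), Des (-0.96) and Acta2 (-0.83) did not pass. With total counts alone these 3 passed as well, at -0.80, -1.39 and -1.26. The call for Rgs5 was lost without kidney EC replicate 1 (-1.49) or 2 (-1.37) and that for Tagln without kidney EC replicate 1 (-0.85). Acta2 passed without kidney EC replicate 1 (-0.65) or 2 (-0.98), and Des passed without kidney transcriptome replicate 1 (-1.08), 2 (-0.65) or 3 (-1.11).

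The difference between organs was tested as an interaction over the 12 EC and organ translatome samples, the log2 fold change in brain minus that in kidney. It passed for 6 of the 10 genes, 4 with a higher value in brain (Anpep, Notch3, Tagln and Pdgfrb) and 2 with a lower value (Abcc9 and Kcnj8), where 16.5% and 8.60% of all 19764 rows passed. The median of all rows was 0.16 with TMM, 0.06 with relative log expression size factors and 0.05 with DESeq2, and the share of calls with a higher value in brain was 65.7%, 57.4% and 55.5%. For Abcc9 the difference was -2.57 (SE 0.14, adjusted p = 2.21e-10), from a fall in brain and a rise in kidney. Anpep had the opposite arrangement, a rise in brain and a fall in kidney, with a difference of 1.91 (SE 0.20, adjusted p = 6.68e-07). The differences for Notch3 (1.82, SE 0.21), Tagln (1.76, SE 0.27) and Pdgfrb (1.01, SE 0.14) came with a fall in kidney. The difference for Kcnj8 (-0.94, SE 0.20, adjusted p = 8.69e-04) was close to the threshold and was lost without any 1 of 9 samples, where it ran from -0.99 to -0.81: brain translatome replicate 2 or 3, brain EC replicate 2 or 3, kidney translatome replicate 1, 2 or 3, or kidney EC replicate 1 or 2. It was also lost with the replicate block (-0.95, adjusted p = 4.01e-03), with total counts alone (adjusted p = 1.16e-03) and with a filter of 10 counts in 3 samples (adjusted p = 1.12e-03). For Rgs5 (0.43, SE 0.25), Cspg4 (0.61, SE 0.16), Des (1.04, SE 0.28) and Acta2 (0.04, SE 0.29) no difference between organs was called.

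The 2 EC translatomes were also set against each other directly. In brain 7 of the 10 were lower than in kidney and none higher, where 16.9% and 20.1% of 19238 rows were. The log2 fold changes were -4.04 for Des, -3.39 for Abcc9, -2.81 for Cspg4, -2.76 for Acta2, -1.67 for Kcnj8, -1.07 for Pdgfrb and -1.06 for Anpep. The call for Anpep was lost without brain EC replicate 2 (-0.96) or 3 (-0.98). Rgs5, at 5.13 to 6.59 RPKM in brain and 5.27 to 6.75 RPKM in kidney, gave -0.04 (SE 0.13, adjusted p = 0.824). Notch3 (0.35, SE 0.16) and Tagln (0.12, SE 0.17) did not pass either. The median over the 10 was -1.37. In the organ translatomes, Notch3 (1.35) and Tagln (1.53) were higher in kidney by the same test, and these are 2 of the genes for which the interaction passed.

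The Emx1 translatome tested the same genes in a capture from neural cells. All 10 fell against the brain translatome, where 12.8% of all 19006 rows fell and 9.20% rose, and the median over the 10 was -2.68. This comparison shares its 3 brain translatome samples with the brain EC comparison. With total counts alone the share of calls that were higher went from 41.7% to 29.9%, and all 10 still fell. Des fell most, to 8, 2 and 8 reads in the 3 Emx1 samples (0.05, 0.03 and 0.07 RPKM), with a log2 fold change of -4.07 (SE 0.30, adjusted p = 4.34e-08). Abcc9 had 0.23, 0.25 and 0.23 RPKM (-3.89, SE 0.10), Kcnj8 0.54, 0.56 and 0.35 RPKM (-3.70, SE 0.16) and Acta2 0.40, 0.28 and 0.34 RPKM (-3.64, SE 0.23). Rgs5 had 2.58, 3.01 and 2.79 RPKM (-3.19, SE 0.12), Tagln 1.05, 1.27 and 0.99 RPKM (-2.18, SE 0.20) and Anpep 0.36, 0.46 and 0.42 RPKM (-2.06, SE 0.13). Pdgfrb had 1.68, 1.78 and 1.77 RPKM (-1.89, SE 0.07) and Cspg4 0.53, 0.63 and 0.59 RPKM (-1.81, SE 0.10).

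Notch3 stood apart from the other 9 genes in the Emx1 translatome, with 10.7, 11.3 and 9.81 RPKM against 16.8, 14.6 and 13.3 RPKM in the brain translatome. The groups did not overlap, and the log2 fold change was -0.44 (SE 0.07, adjusted p = 1.94e-04). That call was lost without brain translatome replicate 1 (-0.34) and in a single fit of all 21 samples (adjusted p = 0.0123). The 12 endothelial markers all fell in the Emx1 translatome, to a median of 8.04% of their brain translatome level, and the neural markers had a median of 97.3%. Against the brain transcriptome 9 of the 10 fell, where 23.8% of 19471 rows fell and 25.4% rose, and Notch3 (-0.27, SE 0.06, adjusted p = 1.32e-03) did not pass. Notch3 fell in that comparison with total counts alone (-0.42), with which the share of calls that were higher went from 51.6% to 39.6%, with DESeq2 (-0.29), and without brain transcriptome replicate 2 (-0.33) or 3 (-0.31).

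The level left of each mRNA was described as the mean RPKM in a capture in percent of that in the organ translatome. RPKM is scaled by total reads, so these shares lie below the fold changes from TMM-normalized counts. In the brain EC translatome Kcnj8 was left at 18.2%, Rgs5 at 22.0%, Abcc9 at 29.2%, Acta2 at 41.0% and Pdgfrb at 60.3%. Neural markers, which mark the bulk of the tissue, were left at a median of 22.2%, from 10.4% for Neurod6 to 73.6% for Chd5. The lowest mural genes thus lay at the level of neural genes, and Pdgfrb lay above all but the highest of them. Des (97.3%), Notch3 (102%), Tagln (116%), Anpep (141%) and Cspg4 (488%) lay above the neural range. Endothelial markers stood at a median of 1897%, stromal markers at 144% and microglial markers at 54.4%. The median over all 12643 rows of at least 1 RPKM in the brain translatome was 80.5%.

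In the kidney EC translatome 8 of the 10 genes lay between 15.8% (Rgs5) and 46.0% (Des), and Abcc9 (169%) and Cspg4 (311%) lay above 100%. The 8 lowest in the brain EC translatome had a wider range, from 18.2% (Kcnj8) to 116% (Tagln). Kidney epithelial markers had a median of 22.0%, stromal markers 35.1%, microglial markers 17.4% and endothelial markers 618%. The median of the 10 genes was 35.3%, close to that of the stromal list. In the Emx1 translatome the shares ran from 5.36% for Des to 71.3% for Notch3.

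**Figure D3:**
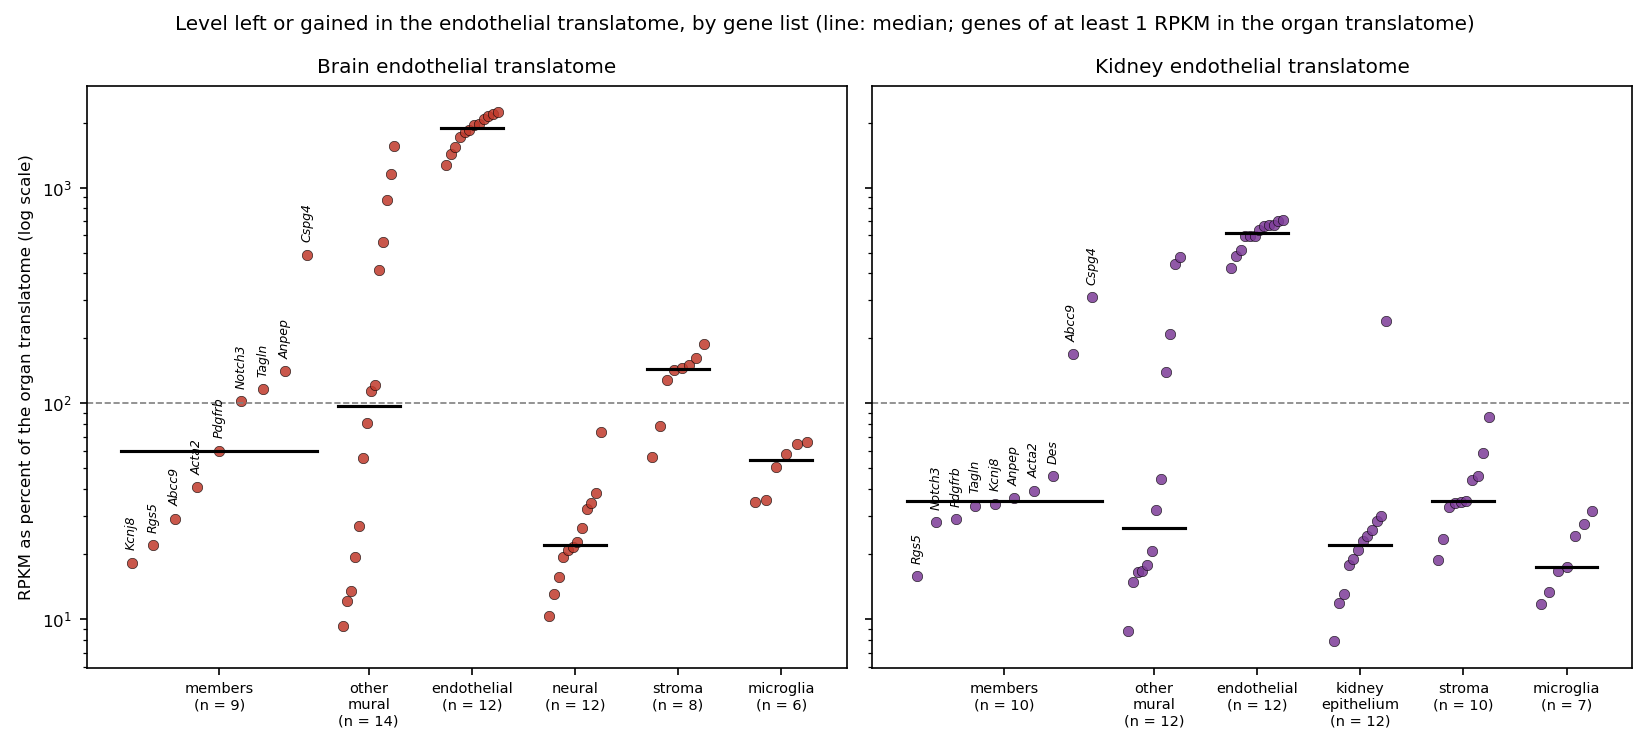
RPKM in the brain EC (left) and kidney EC (right) translatome in percent of the organ translatome (vertical axis, log scale), 1 point a gene, by gene list, with a line at each median and a dashed line at 100%. Genes of at least 1 RPKM in the organ translatome are shown, which leaves out Des in brain: the named genes run from 18.2% to 488% in brain and from 15.8% to 311% in kidney, and the endothelial lists have medians of 1897% and 618%.

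A list of 20 other mural and smooth muscle genes was also divided. In the brain EC translatome 8 rose, 5 fell and 7 did not pass, with a median of 0.52, where 24.8% of all rows rose and 21.4% fell. In the kidney EC translatome 4 rose, 8 fell and 8 did not pass, with a median of -0.84, where 16.7% of all rows rose and 15.0% fell. The 5 that fell in brain and the 4 that rose in kidney are shares near those of all rows. Ndufa4l2 (-3.13 in both organs), Cox4i2 (-2.73 in brain and -2.37 in kidney), Rasl12 (-2.08 and -2.20) and Heyl (-1.60 and -2.13) fell in both. Heyl is a target of Notch signalling, and Ndufa4l2 and Cox4i2 encode mitochondrial proteins. Gja4, the gap junction protein connexin 37 (4.25 and 2.61), Mcam, the adhesion molecule CD146 (3.42 and 2.49), Smtn, smoothelin (3.82 and 1.43), and Mylk, myosin light chain kinase (2.34 and 0.85), rose in both. Gja4 and Mcam are also made by endothelial cells. Foxc1, a forkhead factor, rose in brain (2.78) and fell in kidney (-0.81), as did Tbx18, a T-box factor (0.48 and -1.27). Myl9, the regulatory light chain of smooth muscle myosin, fell in kidney (-2.23) and gave -0.00 in brain (SE 0.10, adjusted p = 0.975). In the Emx1 translatome 13 of the 20 fell and none rose, where 12.8% of all rows fell and 9.20% rose.

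**Figure D4:**
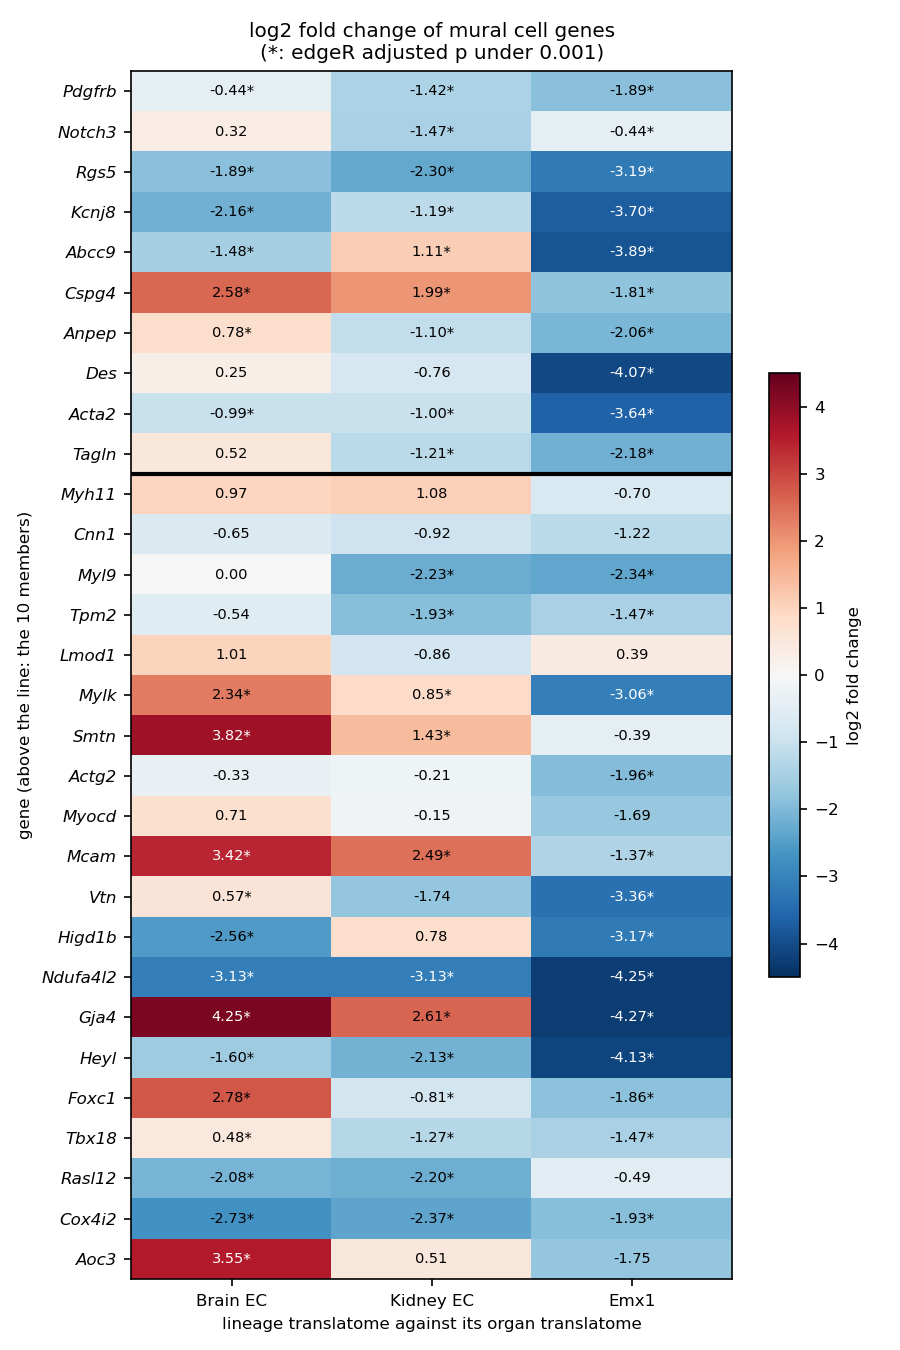
Log2 fold change (colour and number) of the 10 genes, above the line, and of 20 other mural cell genes in 3 lineage translatomes (columns) against the organ translatome, with an asterisk where the edgeR adjusted p was under 0.001. Cspg4, Gja4, Mcam, Smtn and Mylk rose in both EC columns, and Rgs5, Kcnj8, Pdgfrb, Acta2, Ndufa4l2, Cox4i2, Rasl12 and Heyl fell in both.

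Among 19 genes of the signals that pass between endothelium and mural cells, 13 rose and 4 fell in the brain EC translatome, where 24.8% of all rows rose and 21.4% fell, and 8 rose and 7 fell in the kidney EC translatome, where 16.7% rose and 15.0% fell. The 4 that fell in brain are a share near that of all rows. The ligands Pdgfb (4.40 in brain and 2.85 in kidney), Tgfb1 (3.76 and 2.70), Dll4 (4.197 and 3.11) and Edn1 (3.87 and 1.90) rose in both. Jag1, a Notch ligand, rose in brain (2.65) and gave -0.00 in kidney (SE 0.07, adjusted p = 0.967). Angpt1, the ligand of the endothelial receptor Tek, fell in both (-1.02 and -1.78), and so did Ednra, the receptor for endothelin (-1.22 and -2.01). Tek itself rose (4.36 and 2.81). In the Emx1 translatome, Angpt1 was left at 82.2% of its brain translatome level and Ednra at 10.5%. The part of neural mRNA in the brain values of Angpt1 was not tested. Pdgfra, the receptor of fibroblasts and progenitors, rose in brain (0.64) and fell in kidney (-1.15), the same arrangement as Anpep.

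Across the 21 samples the 10 genes followed different neighbours, described by Pearson's r of log2(RPKM + 1), with no test, since the samples share organ and capture. Among the 10 the lowest r was 0.08, between Cspg4 and Rgs5, and the highest was 0.95, between Anpep and Des. Kcnj8 was closer to Rgs5 (0.89) than to Abcc9 (0.80). Of all rows with at least 5 RPKM in a group, those most like Cspg4 were Klhl4, Fam167b and Arhgef3 (each 0.99), and those most like Rgs5 were Ndufa4l2, Samd5 (both 0.94) and Lyz2 (0.92). Heyl and Parm1 (both 0.92) were among those most like Kcnj8, and Glipr2 (0.92), Sulf2 and Slc5a3 (both 0.90) most like Abcc9. Ednra was among those most like Pdgfrb (0.98), Pdgfra among those most like Anpep (0.99) and Myl9 first for Tagln (0.97). With a pseudocount of 0.1 in place of 1, 13 of the 30 pairs were kept.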

How the data were processed

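Per the labels, 21 forebrain or kidney samples were sequenced (TruSeq RNA v2). The authors aligned reads to GRCm38 with RUM, and the deposited values are read counts per RefSeq gene row and RPKM that they computed per row. Depth was 21760652 to 79231692 counts a sample, and 3 samples a group limit the precision. Counts were tested with edgeR 4.0.16 (R 4.3.3; TMM, quasi-likelihood test) on the samples compared, over rows with at least 1 count, with Benjamini-Hochberg adjustment over all rows and a threshold of 0.001. The scripts were tested on simulated data. Alternatives were DESeq2 1.42.0, other scalings, a filter of 10 counts in 3 samples, a threshold of 0.05, a replicate block, a single fit of 21 samples and each sample left out. Deviations of same-numbered translatome and transcriptome libraries, made from the same tissue, correlated by 0.435 to 0.569 in brain and 0.564 to 0.662 in kidney. RPKM was used for levels, shares and likeness (3 genes a member). Positions are from GENCODE M21 and promoters from RefSeq, with 8 of 10 genes matched. All 10 genes and every list were chosen with earlier results of these data known.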

Additional observations from a re-analysis of the deposited data

Results flagged for a closer look

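The change in the EC translatome against the organ translatome differed between brain and kidney for 6 genes by the edgeR interaction test. Of all 19764 rows, 16.5% passed with a higher value in brain and 8.60% with a lower value. The log2 fold change in brain minus that in kidney was -2.57 for Abcc9, 1.91 for Anpep, 1.82 for Notch3, 1.76 for Tagln, 1.01 for Pdgfrb and -0.94 for Kcnj8. The median of all rows in this test was 0.16. Beside these values, the 12 endothelial markers had a median difference of 1.504. Kidney epithelial markers had 1.72, stromal markers 1.445, signal genes 1.41, microglial markers 1.38 and other mural genes 1.18. Oligodendrocyte progenitor markers had 0.998, red cell markers 0.82, neural markers 0.05 and skeletal muscle markers -2.17. Only 4 of 12 neural markers reached 1 RPKM in the kidney translatome, and only 4 of 12 kidney epithelial markers in the brain translatome. In the brain EC translatome 7 of 10 stromal markers rose, where 24.8% of all rows rose. In the kidney EC translatome 6 of 10 fell, where 15.0% of all rows fell. The part of stromal mRNA in the values of Anpep, Notch3, Tagln and Pdgfrb was not tested. Lane and group cannot be told apart.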

How the results depend on the processing

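Of 1490 log2 fold changes of the 10 genes under other settings, 1379 kept their direction and their side of the threshold, 51 lost a call, 45 gained one and 15 changed sign, none of them called. The threshold of 0.05 was applied to the main fit with nothing recomputed. It made up 110 of the 1490, with 96 of those kept and 14 of the gains. Under the threshold of 0.05, 4 genes rose in the brain EC translatome against the brain translatome, 8 fell in the kidney EC translatome against the kidney transcriptome, and 3 and 5 rose in the brain and kidney translatome against the transcriptome. The counts of the 10 genes in this section show how calls moved and are not read as results about the genes. At 0.05 the rows called, higher and lower together, were 10509 of 18940 and 12277 of 19335 for the kidney EC translatome against kidney translatome and transcriptome. They were 8580 of 19006 for Emx1 against brain translatome, and 10855 of 19446 and 9754 of 19336 for translatome against transcriptome in brain and kidney. For brain against kidney EC they were 11469 of 19238 and for the interaction 8522 of 19764. Each was over 1.5 times the number at 0.001.

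With total counts alone, 1 gene rose in the brain EC translatome against either the brain translatome or the transcriptome, 8 fell in the kidney EC translatome against the transcriptome, and 1 had a lower value in brain in the interaction. Over all rows, the shares of calls that were higher were then 36.1% and 35.4% in brain, 24.7% in kidney and 69.7% in the interaction. Des gave -0.048 in the brain EC translatome against the brain translatome. With at least 10 counts in 3 samples, 1 gene rose in the brain EC translatome against the transcriptome and 1 was lower in the interaction. Acta2 in the interaction gave -0.053 with relative log expression size factors and -0.067 with DESeq2, and Rgs5 between the EC translatomes gave 0.079 in a single fit of 21 samples. The median level left over all 10 genes was 78.8% in brain and 35.3% in kidney from RPKM, and 96.3% and 44.3% from TMM-normalized counts, which rest on another scaling. The cause of the other changes was not tested.

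With the replicate block, the paired translatome and transcriptome fits called 5 genes higher in brain and 6 in kidney, and 9496 rows in kidney in place of 5929. Same-numbered EC libraries of brain and kidney had correlated deviations (0.362, 0.214 and 0.193), and the block changed no call of the 10 genes there. In the other comparisons of 2 groups the numbers did not pair the samples, and the block left 3 genes lower in the brain EC translatome against the brain translatome (Pdgfrb, at -0.44, and Acta2, at -0.95, were lost). In the interaction the block tied each EC sample to the same-numbered translatome sample of its organ. Deviations of those pairs correlated by -0.07 to 0.095 in brain and -0.028 to 0.044 in kidney. The correlation between brain and kidney EC libraries was not modelled there. With this block 1 gene was left lower, Abcc9.

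With 1 sample left out, the brain EC translatome against the brain translatome had 1 to 2 genes higher and 3 to 5 lower, the brain translatome against the transcriptome 0 to 1 lower, and the interaction 1 to 2 lower. The log2 fold change then ran from -0.041 to 0.17 for Notch3 and from -0.069 to 0.30 for Des in brain translatome against transcriptome, from -0.55 to 0.037 for Des in kidney, from -0.14 to 0.051 for Rgs5 and from -0.033 to 0.27 for Tagln between the EC translatomes, and from -0.17 to 0.30 for Acta2 in the interaction.

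Depth limited Des in the Emx1 translatome, with 2 to 8 reads a sample.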
